A study of Mus musculus with 15 samples.

Results

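The genes described here are the axon guidance ligands of the semaphorin, ephrin, Slit and netrin families and their receptors, the plexins, neuropilins, Eph receptors, Robo receptors and the netrin receptors Dcc, Neo1 and Unc5. They were picked out by gene symbol, and 66 of the 17090 genes in the table matched, of which 34 encode ligands and 32 encode receptors. The set was chosen with earlier results of these data known. The ligands were 3 Slits, 7 class 3 semaphorins, 13 transmembrane or GPI-anchored semaphorins, 5 ephrin-A, 3 ephrin-B and 3 netrin genes. The receptors were 2 Robo, 2 neuropilin, 9 plexin, 9 EphA, 5 EphB and 5 netrin receptor genes. Each gene is given by its 1 transcript marked as best in the table, and no member shared its counts with another gene.

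Guidance ligands are secreted or membrane-bound proteins that attract or repel growing axons and migrating cells. Slits act through Robo receptors, class 3 semaphorins through neuropilins that pair with plexins, most other semaphorins through plexins alone, ephrins through Eph kinases, and netrins through Dcc, Neo1 and Unc5 receptors. In the bowel, netrins and Dcc guide neural crest-derived cells from the gut wall toward the mucosa and pancreas, and Sema3a delays the entry of sacral crest cells into the distal hindgut.

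ENCDC are the enteric neural crest-derived cells, the precursors of the enteric nervous system. They were sorted by their fluorescence from single embryonic mouse organs, and pooled-cell RNA was sequenced in 15 libraries. RarαDN, a dominant-negative retinoic acid receptor α, is made only after Cre recombination. At E11.5, stomach ENCDC came from 4 RarαDN LoxP/+; Wnt1Cre; ROSA26TdTomato embryos and from 4 control embryos that carried Wnt1Cre and ROSA26TdTomato only. At E13.5, colon ENCDC came from 3 RarαDN LoxP/+; RETCreERT2EYFPTandem embryos and from 4 RETCreERT2EYFPTandem controls, and both groups had received tamoxifen at E10.5. All embryos were of mixed background. Recombination by Wnt1Cre is not limited to the bowel, since it also marks the brain and other crest-derived tissues, and Ret, the gene that drives RETCreERT2, is also expressed in blood-forming cells. The comparison asks which genes are expressed differently when retinoic acid receptor signaling is blocked within ENCDC. The experiments also differ in organ, driver and reporter, so an effect of age cannot be told apart from these.

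Libraries held 8585739 to 11043148 counts in E11.5 control, 6428930 to 12121327 in E11.5 RarαDN, 7190882 to 9996628 in E13.5 control and 6065029 to 10105584 in E13.5 RarαDN ENCDC. Levels are CPM, a library's counts for a gene divided by its scaled total and brought to a common size over all 15 libraries. Of the precursor markers, Sox10 had 288.6 ± 138 CPM (SD, n = 4) in E11.5 control, 512.3 ± 244 (n = 4) in E11.5 RarαDN, 63.2 ± 26.8 (n = 4) in E13.5 control and 158.5 ± 107 CPM (n = 3) in E13.5 RarαDN ENCDC, and Ret, the receptor of GDNF, had 1095 ± 575, 87.1 ± 109, 314.8 ± 46.7 and 305.1 ± 116 CPM in the same order. Neither passed the edgeR test at E11.5 (adjusted p = 0.355 and 0.191) or at E13.5 (0.0857 and 0.985). These 2 genes do not stand for all 10 precursor markers, of which edgeR called 1 higher and 1 lower at E11.5 and 2 higher at E13.5. Rara had 89.3 ± 15.8 CPM (n = 4) in control and 99.3 ± 24.9 CPM (n = 4) in RarαDN ENCDC at E11.5, and it did not pass the test at either age. It is unknown here whether reads from the dominant-negative cassette count toward Rara. Cell-type marker lists differed between the groups. At E11.5 the summed level of 8 melanoblast markers ran from 20.2 to 34.5 CPM in control and from 1299 to 3104 CPM in RarαDN libraries, with Mlana and Slc45a2 at 0 in control, and that of 14 neuronal markers ran from 1261 to 3163 and from 628.5 to 835.7 CPM, with Dcx at 0 in RarαDN libraries. The sums of 9 Schwann precursor and glia markers (146.3 to 188.3 CPM in control and 255.1 to 373.9 CPM in RarαDN libraries) and of 12 leukocyte and macrophage markers (40.7 to 60.6 and 73.3 to 300.2 CPM) did not overlap at E11.5 either. Of the 7 Schwann precursor and glia markers tested, only Mbp (means of 4.72 and 118 CPM) and Gfra3 (7.38 and 69.6 CPM) were called, both higher. Fabp7 (59.7 and 40.8 CPM) and Cdh19 (81.8 and 69.7 CPM) had lower means in RarαDN than in control ENCDC, without a call. The endothelial genes Kdr, Pecam1 and Cldn5 were called lower at that age, with Pecam1 and Cldn5 at 0 in RarαDN libraries. Eng, the other endothelial marker tested, was called higher (1.30 ± 0.496 CPM in control and 21.9 ± 13.4 CPM in RarαDN ENCDC, edgeR adjusted p = 0.00358). At E13.5 the 14 neuronal markers summed to 4421 to 5300 CPM in control and 2419 to 3694 CPM in RarαDN libraries, and 13 mesenchyme and smooth muscle markers to 159.8 to 349.5 and 72.1 to 151.5 CPM. Of the 14 neuronal markers edgeR called 4 lower and 1, Nefm, higher (means of 91.6 and 206.7 CPM, adjusted p = 0.0356). Of the 8 mesenchyme and smooth muscle markers tested it called 2 lower and 0 higher, and Col3a1 had a higher mean in RarαDN ENCDC without a call (15.5 and 21.6 CPM). E13.5 control libraries 2 and 3 held 826.7 and 4065 CPM of hemoglobin genes, against 0.327 to 77.8 CPM in the other 13 libraries. Hba-a1 and Hba-a2 had equal values, as did Hbb-b1 and Hbb-b2, so these sums may count the same reads more than once. The part of these differences in any result below was not tested, and in pooled cells fewer cells of a type cannot be told apart from less RNA per cell.

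The promoters of Slit2 and Slit3 are shown because these paralogous ligands moved together at E11.5, and that of Nrp1 because it alone, among the 12 members called in a comparison that have an entry, holds AGGTCA, the core motif of retinoic acid receptor binding sites. Each window has 250 bases before and 50 bases after the annotated start, 5′ to 3′ on the gene's strand, from RefSeq on GRCm38.p6, and capitals mark AGGTCA or its reverse complement TGACCT. Slit2 lies at chr5:47982905-47983204 (+), Slit3 at chr11:35121206-35121505 (+) and Nrp1 at chr8:128358823-128359122 (+).
Slit2: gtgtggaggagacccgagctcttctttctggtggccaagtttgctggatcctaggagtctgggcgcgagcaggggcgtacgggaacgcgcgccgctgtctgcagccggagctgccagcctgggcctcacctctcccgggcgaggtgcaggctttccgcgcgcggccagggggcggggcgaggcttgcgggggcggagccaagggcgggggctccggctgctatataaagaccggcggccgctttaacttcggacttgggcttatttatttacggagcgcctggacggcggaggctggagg
Slit3: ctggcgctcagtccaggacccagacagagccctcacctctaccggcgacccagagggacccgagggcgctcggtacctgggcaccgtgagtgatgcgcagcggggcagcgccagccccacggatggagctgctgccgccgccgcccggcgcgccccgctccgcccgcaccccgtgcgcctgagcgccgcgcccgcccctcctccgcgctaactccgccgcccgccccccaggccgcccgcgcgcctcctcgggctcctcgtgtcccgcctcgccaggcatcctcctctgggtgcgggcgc
Nrp1: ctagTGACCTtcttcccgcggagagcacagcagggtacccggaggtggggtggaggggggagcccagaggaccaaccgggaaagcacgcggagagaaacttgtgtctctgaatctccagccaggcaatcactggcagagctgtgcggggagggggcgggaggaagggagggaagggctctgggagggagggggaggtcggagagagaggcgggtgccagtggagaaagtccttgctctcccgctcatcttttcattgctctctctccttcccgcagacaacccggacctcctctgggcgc
AGGTCA was present on either strand in 16.3% of all 32851 promoters of this length. Of the 73 promoters of the 57 members with an entry, 9 held it (12.3%). The spaced direct repeat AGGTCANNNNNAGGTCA, in which N is any base, was in 0.00913% of all promoters and in 0 of the 73. A match is a description of the letters only, and a window without one says nothing about binding of a receptor.

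Compared per kb of transcript, the levels of the families were led by a small number of genes. Among receptors, Nrp1, the neuropilin that binds class 3 semaphorins and VEGF, had the highest level, with 90.4 CPM per kb in E11.5 control, 49.0 in E11.5 RarαDN, 51.9 in E13.5 control and 81.7 in E13.5 RarαDN ENCDC. The plexins were led by Plxnb2 (16.2 CPM per kb in E11.5 control ENCDC) and Plxna4 (9.79) in those libraries, whereas Plxna1 (6.69) was the second only by its mean over all 15 libraries, and the Eph receptors by Ephb4 (17.1) and Ephb3 (12.6) among EphB and by Epha3 (5.74) and Epha7 (4.72) among EphA genes. Neo1 (5.61 CPM per kb) and Unc5c (2.74) led the netrin receptors, and Robo1 (3.36) exceeded Robo2 (0.533) in the same libraries. Among ligands, Slit3 had 39.7 CPM per kb in E11.5 control ENCDC and Slit2 had 1.09. Sema4c (16.0 CPM per kb), Efnb1 (7.49) and Sema3d (5.40) led their families there, whereas no netrin exceeded 1.43 CPM per kb. Of the ephrin-A genes, Efna2 had 28.9 and Efna5 50.5 CPM per kb, but the matched transcript of Efna5 was only 643 bases long, so its level per length is uncertain.

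**Figure D1:**
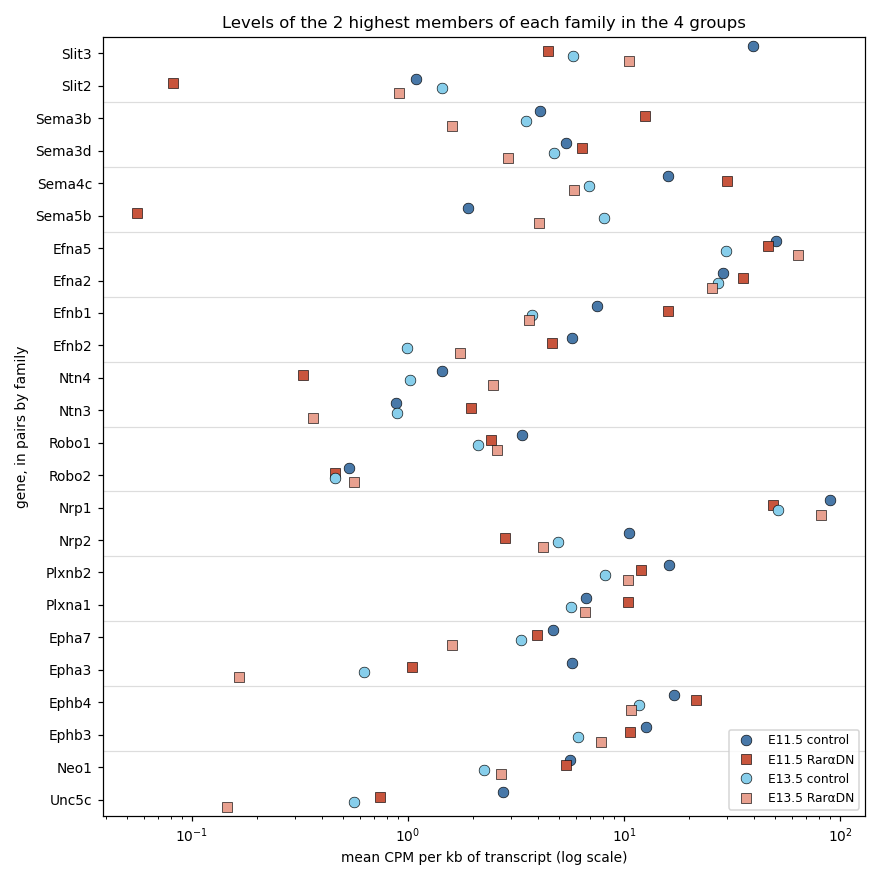
Mean CPM per kb of transcript (log axis) of the 2 members of each family with the highest mean over all 15 libraries, with families separated by lines, in control (circles) and RarαDN ENCDC (squares) at E11.5 and E13.5. Nrp1 lies between 49.0 and 90.4 CPM per kb in all 4 groups, whereas Slit3 ranges from 4.43 to 39.7.

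At E11.5, 8 of the 56 guidance genes that passed the filter on low counts were called at an adjusted p under 0.05 (edgeR quasi-likelihood test with Benjamini-Hochberg adjustment over 12427 genes), 5 lower and 3 higher in RarαDN ENCDC. That is 14.3% of the tested members, beside 6.00% of all genes (3.07% higher and 2.93% lower). Earlier results of these data were known when the set was chosen, and the difference between these shares was not tested. Slit2, Slit3, Sema4f, Epha3 and Unc5c fell, and Sema3b, Sema6d and Plxnc1 rose. Slit2 and Sema4f passed the filter only through their higher control libraries, and Plxnc1 only through its higher RarαDN libraries. The direction of their calls is therefore not separate evidence of a change. The ligands made up 3 of the lower and 2 of the higher calls, and the receptors 2 of the lower and 1 of the higher. The median log2 fold change was 0.24 over the 30 tested ligands and -0.20 over the 26 tested receptors, beside -0.05 over all genes. No overlap between groups was seen in 11 of the 56 members, beside 15.7% of all genes tested. The count of 8 became 4 without control library 1 or 4, 5 without control library 3, and 14 without RarαDN library 1. The balance of directions also moved, to 6 higher and 4 lower with the trend with transcript length removed, 1 higher and 7 lower with limma-voom, and 1 higher and 5 lower in a fit of all 4 groups. Longer transcripts had lower fold changes at E11.5 (Spearman's correlation -0.287 across 12226 genes, which are not independent).

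Both Slits that could be tested fell. Slit3, a secreted repellent, had 203, 113, 239 and 275 CPM in the 4 control libraries and 12.7, 36.3, 30.7 and 12.99 CPM in the 4 RarαDN libraries. Every RarαDN library was below every control library. Its mean was 207.5 ± 69.6 CPM in control and 23.2 ± 12.2 CPM in RarαDN ENCDC (n = 4 each). The log2 fold change was -3.19 (SE 0.42, edgeR adjusted p = 0.00169). This call held under each of the 10 alternative settings and with each library left out. Slit2, the family member studied most as a midline repellent, had 5.67, 8.40, 13.6 and 15.6 CPM in control and 0.531, 0.617, 0.727 and 1.37 CPM in RarαDN ENCDC. The groups again did not overlap (log2 fold change -3.76, SE 0.67, edgeR adjusted p = 0.00813), although the adjusted p was 0.0553 without control library 4. Slit1 was too low to test, with 0 to 0.425 CPM in control libraries and no count in the RarαDN libraries. Of the receptors for these ligands, Robo1 had 21.8, 17.8, 27.1 and 34.9 CPM in control and 5.40, 21.2, 36.1 and 10.7 CPM in RarαDN ENCDC. Its ranges overlapped, and Robo1 did not pass the test (log2 fold change -0.49, SE 0.53, edgeR adjusted p = 0.669).

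Semaphorins changed in both directions. Sema3b, a secreted class 3 semaphorin, had 12.5, 14.4, 10.7 and 14.5 CPM in control and 30.5, 41.9, 30.1 and 57.3 CPM in RarαDN ENCDC. All 4 RarαDN libraries were above all controls (log2 fold change 1.59, SE 0.32, edgeR adjusted p = 0.0136). The call was lost without control library 1 or 3 (adjusted p = 0.0610 and 0.0653). Sema6d, a transmembrane semaphorin that binds Plxna1, had 2.58, 1.83, 2.29 and 3.23 CPM in control and 8.85, 5.94, 32.9 and 25.97 CPM in RarαDN ENCDC. All RarαDN libraries lay above all controls (log2 fold change 2.85, SE 0.62, edgeR adjusted p = 0.0214). Removing a library ended this call in 5 of 8 cases, namely any of the 4 controls (adjusted p = 0.0800, 0.0553, 0.0810 and 0.0610) or RarαDN library 4 (0.0565), as did a fit of all 4 groups (0.0632) and limma-voom (0.126). The replicate block ended it too. Sema4f, a transmembrane semaphorin, had 3.52, 2.80, 5.23 and 6.29 CPM in control and no count in any RarαDN library. Against a limit of 3 counts over the 4 RarαDN libraries, it was at least 60.1-fold lower (edgeR adjusted p = 0.00940). The Sema4f call held with any library left out but not with the replicate block (edgeR adjusted p = 0.102).

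Sema5b, a transmembrane semaphorin with thrombospondin repeats, had 9.71, 4.63, 8.60 and 9.95 CPM in control and 0.973, 0, 0 and 0 CPM in RarαDN ENCDC. Its groups did not overlap, yet it missed the threshold (log2 fold change -4.95, SE 1.32, edgeR adjusted p = 0.0529). It was called with DESeq2 (adjusted p = 0.000717), with limma-voom (0.0138), in a fit of all 4 groups (0.0018), with a filter at 1 CPM (0.0409) and without scaling (0.0493). It was also called without RarαDN library 1 (edgeR adjusted p = 0.00304), the only RarαDN library with a count. Sema3c, a class 3 semaphorin that signals through neuropilins, had 15.1, 11.2, 22.5 and 22.5 CPM in control and 21.1, 3.70, 4.22 and 4.56 CPM in RarαDN ENCDC. RarαDN library 1 lay within the control range and the other 3 lay below it (log2 fold change -1.10, SE 0.62, edgeR adjusted p = 0.374). Without RarαDN library 1 the log2 fold change was -2.07 (SE 0.43) and Sema3c was called (edgeR adjusted p = 0.0159).

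Among receptors, Plxnc1, the plexin that binds Sema7a, had 1.03, 0.215, 1.20 and 0.680 CPM in control and 5.31, 16.3, 29.8 and 12.5 CPM in RarαDN ENCDC. Each RarαDN library was above each control library (log2 fold change 4.31, SE 0.75, edgeR adjusted p = 0.00736). The call held with any library left out but not in a fit of all 4 groups (adjusted p = 0.0868) or with limma-voom (0.0528). Its ligand Sema7a was not tested, with 8 counts in all over the control libraries and 0 over the RarαDN libraries. Plxna2, a receptor partner of neuropilins, did not pass (5.04 ± 3.21 and 5.82 ± 2.71 CPM, n = 4 each, edgeR adjusted p = 0.924).

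Epha3, a receptor for A-type ephrins, had 45.8, 21.2, 21.0 and 42.0 CPM in control and 7.70, 3.39, 10.47 and 2.05 CPM in RarαDN ENCDC. Every RarαDN library was lower than every control (log2 fold change -2.48, SE 0.56, edgeR adjusted p = 0.0237). The call was lost without control library 1 (adjusted p = 0.0945), control library 4 (0.0827) or RarαDN library 2 (0.0531), in a fit of all 4 groups (0.270) and with the trend with transcript length removed (0.0688). It was lost with the replicate block as well. Unc5c, a netrin receptor of the repulsive response, had 18.0, 27.1, 27.8 and 32.98 CPM in control and 4.51, 12.96, 5.67 and 5.47 CPM in RarαDN ENCDC. The groups did not overlap (log2 fold change -1.90, SE 0.43, edgeR adjusted p = 0.0263), but the call held in only 2 of the 8 fits with a library left out, those without RarαDN library 1 or 2. In the other 6, without any of the 4 controls or RarαDN library 3 or 4, the adjusted p ran from 0.0541 to 0.105, and it was 0.204 in a fit of all 4 groups. The replicate block also ended the Unc5c call.

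Nrp1 had 356, 240, 328 and 378 CPM in E11.5 control and 191, 278, 144 and 92.1 CPM in E11.5 RarαDN ENCDC. RarαDN library 2 lay above control library 2, and Nrp1 did not pass (log2 fold change -0.90, SE 0.31, edgeR adjusted p = 0.126), although it passed without RarαDN library 2 (adjusted p = 0.0356). Its relative Nrp2 had 62.1, 43.7, 86.7 and 75.2 CPM in control and 10.4, 46.2, 3.93 and 11.4 CPM in RarαDN ENCDC, so that only RarαDN library 2 reached the control range. Nrp2 missed the threshold too (log2 fold change -1.91, SE 0.62, edgeR adjusted p = 0.106). It was called with DESeq2 (adjusted p = 0.0148), with limma-voom (0.0330) and, at a log2 fold change of -2.98, without RarαDN library 2 (edgeR adjusted p = 0.00543).

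No ephrin, netrin, EphB or Robo gene was called in the main edgeR fit of either age. Among the alternative edgeR fits, Efnb1 was called at E11.5 with the trend with transcript length removed. Without E11.5 RarαDN library 1, Efnb1 and Robo2 were called, and without E13.5 control library 4, Efna5 was. At an unadjusted p under 0.05 there were 1 ephrin-B gene at E11.5, 1 ephrin-A gene and 1 netrin at E13.5 and 0 EphB or Robo genes, and DESeq2 called 1 ephrin-B gene, Efnb1, at E11.5 and 1 netrin, Ntn1, at E13.5. Efna2, the ephrin-A of highest mean CPM, had 61.5 ± 5.38 CPM in control and 75.5 ± 15.2 CPM in RarαDN ENCDC at E11.5 (n = 4 each), and 58.2 ± 14.2 (n = 4) and 54.3 ± 5.74 CPM (n = 3) at E13.5. Efnb1, a membrane ligand of EphB receptors, had 24.4 ± 5.77 and 52.3 ± 17.6 CPM at E11.5. Its log2 fold change was 1.07 (SE 0.34, edgeR adjusted p = 0.0937), and RarαDN library 1 lay within the control range of 16.6 to 29.4 CPM. Ephb4 had 74.4 ± 34.6 and 93.8 ± 46.2 CPM at E11.5 (edgeR adjusted p = 0.763), and Ntn3 had 4.46 ± 1.85 and 9.92 ± 9.07 CPM (edgeR adjusted p = 0.425). A missed threshold does not show equal levels for these genes.

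**Figure D2:**
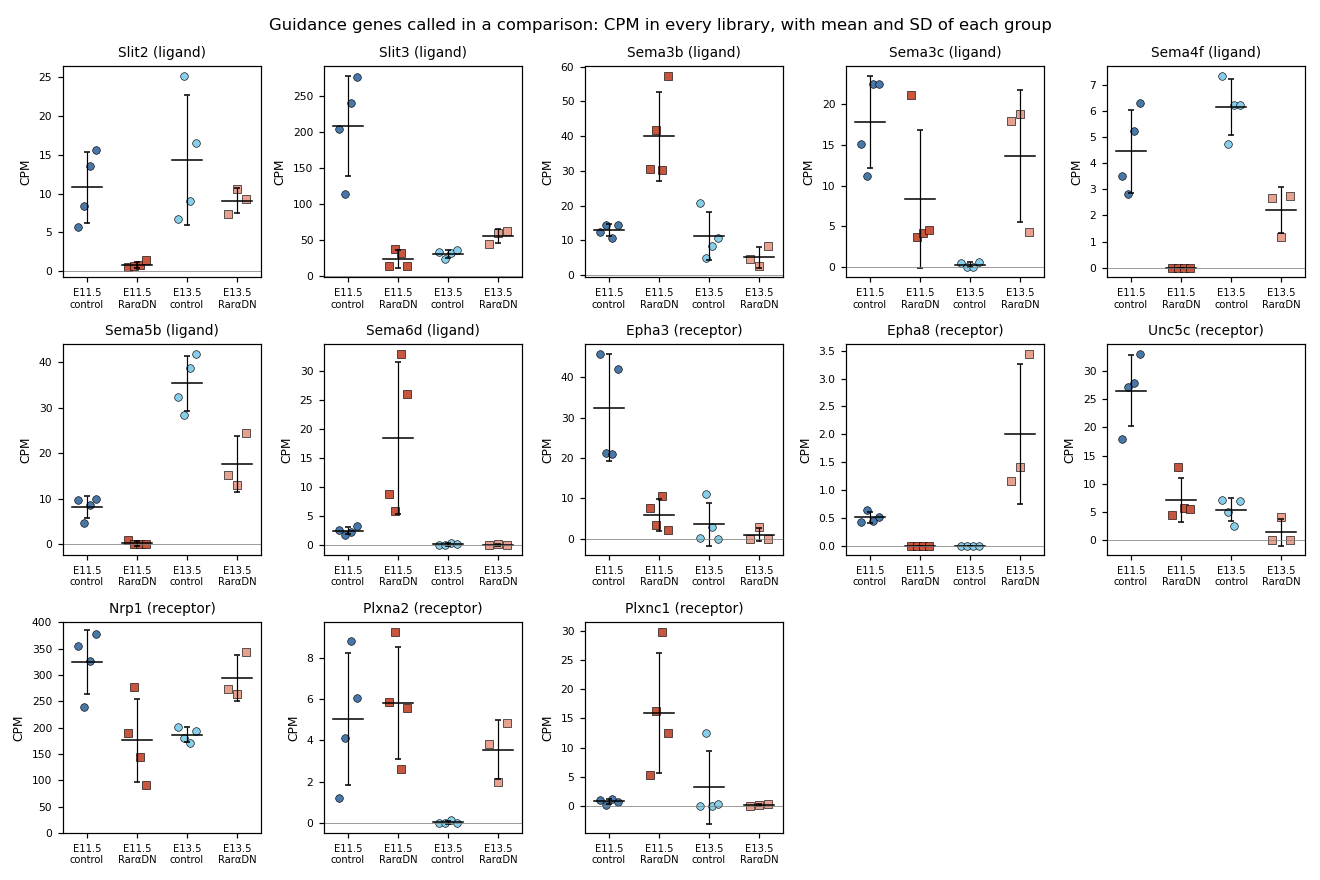
CPM in every library of the 13 guidance genes called at E11.5, at E13.5 or in the difference between ages, with control libraries as circles, RarαDN libraries as squares, and the mean and SD of each group as lines. Slit3 lies at 113 to 275 CPM in the E11.5 control libraries and at most at 62.1 CPM in the others, and Sema3c is at most 0.637 CPM in the E13.5 control libraries.

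At E13.5, 3 of the 51 guidance genes tested were called, Sema3c, Nrp1 and Plxna2, all higher in RarαDN ENCDC (edgeR quasi-likelihood test, adjusted over 12085 genes). This was 5.88% of the tested members, beside 8.33% of all genes (2.78% higher and 5.55% lower), a share below that of all genes. Sema3c is a secreted ligand, Nrp1 a co-receptor and Plxna2 a signaling receptor. Sema3c and Plxna2 passed the filter on low counts only through their higher RarαDN libraries, so the direction of their calls is not separate evidence of a rise. The median log2 fold change was -0.20 over the 27 tested ligands and 0.25 over the 24 tested receptors, beside 0.06 over all genes. The groups did not overlap in 8 of the 51, beside 25.7% of all genes tested.

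Sema3c had 0.431, 0, 0 and 0.637 CPM in the 4 control libraries, from 9 counts in all, and 18.0, 18.8 and 4.33 CPM in the 3 RarαDN libraries. All RarαDN libraries were above all controls (log2 fold change 5.55, SE 1.17, edgeR adjusted p = 0.0196). Nrp1 had 201, 181, 170 and 195 CPM in control and 274, 264 and 344 CPM in RarαDN ENCDC. Control and RarαDN libraries were separate, with means of 186.8 ± 13.7 (n = 4) and 294.0 ± 43.5 CPM (n = 3). Its log2 fold change was 0.69 (SE 0.15, edgeR adjusted p = 0.0216). Plxna2 had 1 count over the 4 control libraries, in library 3, and 3.82, 1.99 and 4.82 CPM in the RarαDN libraries. The 89 RarαDN counts against 1 control count gave a ratio of 108.5, with a 95% interval of 19.0 to 4334 that covers counting error only (edgeR adjusted p = 0.0329).

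None of these 3 calls held under every setting. Without control libraries 2 and 3, which were rich in hemoglobin, edgeR called 0 of 54 guidance genes (10 at an unadjusted p under 0.05), and Nrp1 had a log2 fold change of 0.60 (SE 0.16, adjusted p = 0.117). The edgeR count was also 0 without RarαDN library 1 (6 at an unadjusted p under 0.05), without RarαDN library 2 (9) and with the trend with transcript length removed (10). Nrp1 was also lost without control library 3 (adjusted p = 0.0585) or RarαDN library 3 (0.0989) and in a fit of all 4 groups (0.169). With the replicate block, Nrp1 and Plxna2 were both lost. Plxna2 was lost without control library 2 (0.0578), control library 3 (0.0595) or RarαDN library 3 (0.141) and without the filter (0.0570), and Sema3c with limma-voom (0.0829). With all 7 libraries, 8 members had an unadjusted p under 0.05, and DESeq2 called 6 and limma-voom 2. Longer transcripts had higher fold changes at E13.5 (Spearman's correlation 0.484 across 11887 genes, which are not independent), and the tested guidance genes had a median length of 5038 bases beside 2934 over all genes. In these 4 fits the count over all genes fell as well, to between 25 and 212.

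Of the other guidance genes at E13.5, Slit3 had 32.4, 22.7, 31.2 and 35.3 CPM in control and 43.2, 59.4 and 62.1 CPM in RarαDN ENCDC. Its groups did not overlap, but it missed the threshold (log2 fold change 0.89, SE 0.27, edgeR adjusted p = 0.0714), although DESeq2 called it. Slit2 had 6.69, 25.2, 8.99 and 16.6 CPM in control and 7.31, 10.6 and 9.34 CPM in RarαDN ENCDC, with overlapping groups (edgeR adjusted p = 0.560). Robo1 had 15.9 ± 7.54 CPM in control and 19.5 ± 11.8 CPM in RarαDN ENCDC (edgeR adjusted p = 0.762).

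Sema5b had 32.2, 28.5, 38.7 and 41.8 CPM in control and 15.3, 13.1 and 24.5 CPM in RarαDN ENCDC. The groups did not overlap (log2 fold change -0.96, SE 0.34, edgeR adjusted p = 0.112). Sema4f had 7.33, 4.74, 6.24 and 6.24 CPM in control and 2.66, 1.17 and 2.75 CPM in RarαDN ENCDC, again without overlap and without a call (edgeR adjusted p = 0.305). Sema3b had 20.8, 4.91, 8.41 and 10.7 CPM in control and 4.49, 2.46 and 8.36 CPM in RarαDN ENCDC, with overlapping groups (edgeR adjusted p = 0.375). Sema6d was too low to test, with at most 0.435 CPM in any E13.5 library.

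Among receptors, Epha3 had at most 11.1 CPM in the control and 2.81 CPM in the RarαDN libraries (edgeR adjusted p = 0.666). Unc5c had 7.12, 5.07, 2.61 and 6.87 CPM in control and 0, 4.10 and 0.0984 CPM in RarαDN ENCDC, with overlapping groups (edgeR adjusted p = 0.470). Plxnc1 was not tested at this age. It had 12.4 CPM in control library 2 and at most 0.295 CPM in each of the other 6 libraries.

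**Figure D3:**
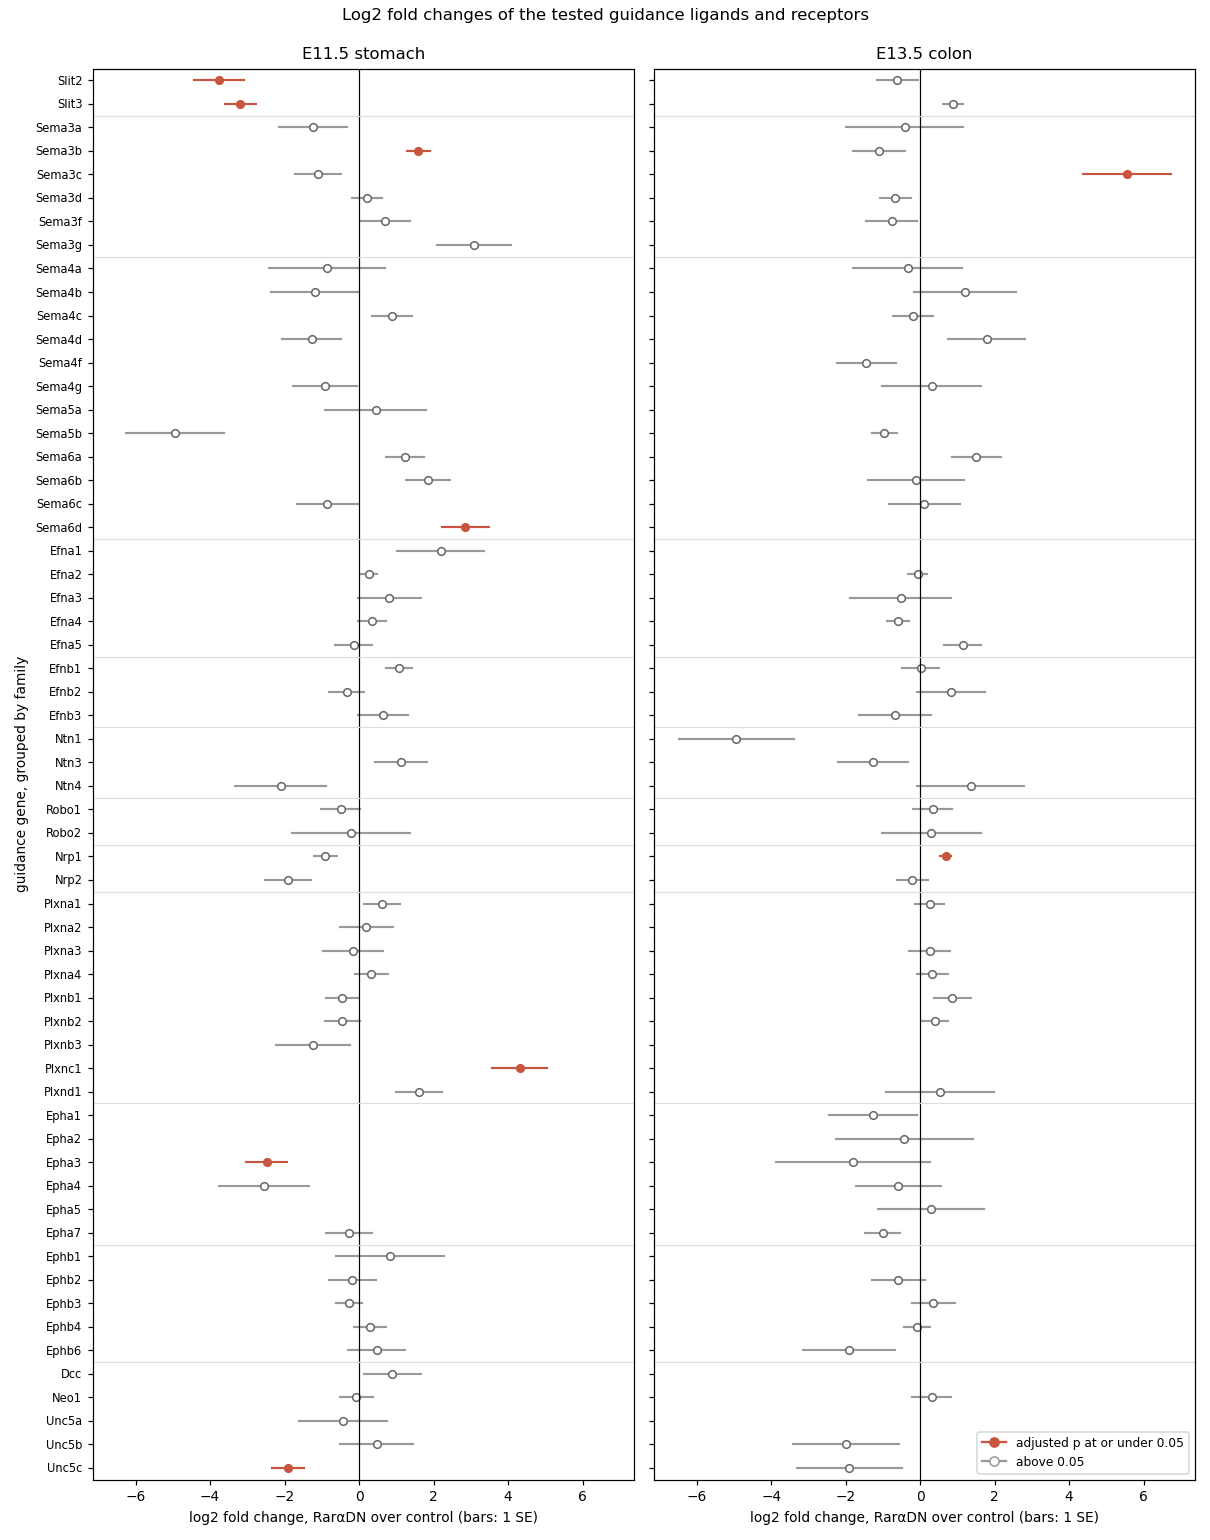
Log2 fold change of RarαDN over control ENCDC for each tested guidance gene, by family, at E11.5 (left) and E13.5 (right), with bars of 1 SE and genes called at an adjusted p under 0.05 in red. Sema4f at E11.5 and Plxna2 at E13.5 are not drawn because one group held 0 or 1 count. Slit2 and Slit3 have log2 fold changes of -3.76 and -3.19 at E11.5, and Sema3c has 5.55 at E13.5.

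The change with RarαDN differed between the ages, tested as an interaction in 1 fit of all 15 libraries, for 10 of the 61 guidance genes tested (16.4%), beside 14.5% of all 13412 genes (7.34% higher and 7.20% lower at E13.5). For 8 of them the E13.5 fold change was higher than the E11.5 fold change, and for 2 it was lower. A difference below is the log2 fold change at E13.5 minus that at E11.5, beside a median of 0.12 over all genes. It was 4.02 (SE 0.50, edgeR adjusted p = 0.000127) for Slit3 and 3.07 (SE 0.82, adjusted p = 0.0193) for Slit2. For the semaphorins it was 6.61 for Sema3c (SE 1.24, edgeR adjusted p = 0.00265), 3.90 for Sema5b (SE 1.09, adjusted p = 0.0243) and -2.75 for Sema3b (SE 0.70, adjusted p = 0.0148). Sema4f passed as well (edgeR adjusted p = 0.00428), since it was at 0 in every E11.5 RarαDN library and at 1.17 CPM or more in every E13.5 one.

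Among receptors the difference was 1.54 for Nrp1 (SE 0.37, edgeR adjusted p = 0.0107), for which the fold change was negative at E11.5 and positive at E13.5. It was 6.01 for Plxna2 (SE 1.42, edgeR adjusted p = 0.0102), where the E13.5 controls held 1 count. Plxnc1 gave -8.29 (SE 2.29, edgeR adjusted p = 0.0226), a value that rested on E13.5 control library 2, and without that library the adjusted p was 0.266. It was also lost without any of the 3 E13.5 RarαDN libraries (0.0711, 0.0662 and 0.0573) and with limma-voom (0.125). Epha8, an Eph receptor, had 0.430 to 0.646 CPM in E11.5 controls and no count in E11.5 RarαDN libraries, and no count in E13.5 controls and 1.16, 1.41 and 3.44 CPM in E13.5 RarαDN libraries. Against limits of 3 counts per group, it was at least 6.68-fold lower at E11.5 and at least 22.0-fold higher at E13.5 (edgeR adjusted p of the difference 0.00555). Epha8 was too low to test in the fit of either age. It entered the fit of the 4 groups through the E13.5 RarαDN libraries, where it was highest, so this p-value is not separate evidence of a rise there. With the replicate block the differences for Epha8 (edgeR adjusted p = 0.0871), Plxna2 (0.0704), Sema4f (0.0548) and Plxnc1 were not called. Without both hemoglobin-rich controls the differences for Nrp1, Plxnc1 and Sema5b were no longer called, and with the length trend removed those for Nrp1, Sema5b and Slit2 were not. The difference for Slit2 was also lost without E11.5 control library 4 (edgeR adjusted p = 0.0518) or E13.5 RarαDN library 2 (0.0523), and that for Sema5b without E13.5 RarαDN library 3 (0.0636).

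Other genes of these signaling pathways, some intracellular and some at the cell surface or secreted, were read from 5 lists of 87 genes, 85 of them in the table. The lists, too, were chosen with earlier results of these data known. At E11.5, 5 rose and 5 fell of 78 tested, and at E13.5, 2 rose and 4 fell of 77. That is 12.8% of the tested genes at E11.5, beside 6.00% of all genes, and 7.79% at E13.5, beside 8.33% of all genes. At E13.5 edgeR called 0 of them without both hemoglobin-rich controls and without RarαDN library 1 or 2. The count was 2 when control library 2 was removed, and 1 when control library 3 or RarαDN library 3 was. At E11.5 the count fell to 4 without control library 1, 5 without control library 3 and 6 without control library 4. In the semaphorin and plexin list at E11.5, Dpysl4, a collapsin response mediator, fell from 137 ± 28.1 to 60.2 ± 16.4 CPM (n = 4 each, edgeR adjusted p = 0.0209). Nrcam, an adhesion protein of neuropilin complexes, fell from 113 ± 46.9 to 26.4 ± 17.1 CPM (edgeR adjusted p = 0.0335), and Rras, a small GTPase that plexins inactivate, rose from 21.4 ± 6.30 to 52.7 ± 9.96 CPM (adjusted p = 0.0254). At E13.5 Rras fell from 94.9 ± 20.4 to 36.6 ± 2.58 CPM (edgeR adjusted p = 0.00886), Dpysl5 fell from 38.6 ± 11.9 to 15.6 ± 1.29 CPM (0.0445) and Dpysl3 rose from 597 ± 95.5 to 937 ± 82.7 CPM (0.0248). With 1 library left out, the E13.5 calls held in 5 of 7 fits for Rras, 2 for Dpysl3 and 1 for Dpysl5, and the E11.5 calls in 5 of 8 fits for Dpysl4, 4 for Rras and 3 for Nrcam.

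In the netrin and Dcc list at E11.5, 3 rose and 2 fell of 15 tested. Rgmb, a GPI-anchored ligand of Neo1, fell from 108 ± 7.55 to 36.3 ± 11.6 CPM (edgeR adjusted p = 0.00484). Trim9, a ubiquitin ligase that binds Dcc, had 4.32 ± 1.25 CPM in control and no count in any RarαDN library (edgeR adjusted p = 0.00939), and Ablim1, an actin-binding LIM protein, rose from 3.03 ± 1.72 to 32.5 ± 14.5 CPM (0.00576). Trim9 passed the filter on low counts only through the control libraries. At E13.5 edgeR called 0 of the 14 tested in this list (4 at an unadjusted p under 0.05), DESeq2 called 1 and limma-voom 0. In the list of small GTPases and actin regulators, Cfl1, the actin-severing protein cofilin, rose from 658 ± 66.9 to 1263 ± 210 CPM at E11.5 (edgeR adjusted p = 0.00990) and fell from 1253 ± 236 to 809 ± 75.2 CPM at E13.5 (0.0384). Pak1, a kinase downstream of Rac, fell from 68.8 ± 9.28 to 27.4 ± 6.17 CPM at E11.5 (edgeR adjusted p = 0.0113), and Rac3 fell from 40.5 ± 14.9 to 12.96 ± 2.70 CPM at E13.5 (0.0269). The E11.5 calls of Rgmb, Trim9, Ablim1 and Cfl1 held with any library left out, and that of Pak1 in 7 of 8 fits, whereas at E13.5 those of Rac3 and Cfl1 held in 3 and 2 of 7. The differences between ages were called for Rras (-2.68, SE 0.37, edgeR adjusted p = 0.000252) and Cfl1 (-1.57, SE 0.24, adjusted p = 0.000665), and both held in each of the 15 fits with a library left out and under the 10 other alternatives. In the Slit and Robo list edgeR called 0 of 14 at each age (1 and 2 at an unadjusted p under 0.05 at E11.5 and E13.5), whereas DESeq2 called 1 at each age and limma-voom 0. In the Eph and ephrin list, all 3 tools called 0 of 15 at E11.5 (1 at an unadjusted p under 0.05). At E13.5 Adam10, a protease that cleaves ephrins, rose from 50.1 ± 5.54 to 85.0 ± 15.3 CPM (edgeR adjusted p = 0.0417). This call was lost with any of the 7 libraries left out (adjusted p from 0.0509 to 0.244), without both hemoglobin-rich controls (0.130) and with the length trend removed (0.386).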

How the data were processed

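RNA from ENCDC of single organs was made into cDNA with SMART amplification and into libraries with Nextera XT, and each sample was sequenced in 2 runs that were combined. The authors deposited whole-number counts per RefSeq transcript, from reads mapped with RUM after removal of repeat and ribosomal reads. No source used here names the genome build or annotation, and no step marks strand, so overlapping antisense genes are uncertain. The deposited table also holds 15 columns of normalized log2 values and the authors' own fold changes and adjusted p-values, none of which was used.

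Counts of the transcript marked as best were filtered (filterByExpr), TMM-scaled and compared by the robust quasi-likelihood test of edgeR 4.0.16 in R 4.3.3, with 1 fit per age, an interaction in a fit of the 4 groups, and Benjamini-Hochberg adjustment over all genes (threshold 0.05). SEs were derived from each fold change and its F statistic. Folds against a group at 0 used 3 counts over that group. These limits and intervals cover counting error only, because amplified reads are not independent molecules. Replicates were single embryos' organs, as the protocol states. Lengths were those of GENCODE transcripts with the same RefSeq accession (66 of 66 members). The steps were tested on simulated counts.

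Named with values in every library was each member called in a comparison, with the member of highest mean CPM of each family without a call, the highest 2 by level per kb of each family, and up to 3 called genes per list. Slit1, Nrp2, Plxna4, Ntn1, Sema7a, Sox10, Ret, Mlana, Slc45a2, Dcx, Kdr, Pecam1 and Cldn5 were named after their values were seen. So were Eng, Mbp, Gfra3, Fabp7, Cdh19, Nefm and Col3a1. The members and lists were chosen with earlier results of these data known. Alternatives were RLE or no scaling, other filters, DESeq2 1.42.0, limma-voom (limma 3.58.1), a replicate block, the transcript with the largest total, all 4 groups in 1 fit, and libraries left out, and the length trend was added after the data were seen. Figures were drawn with matplotlib 3.10.9. Results for some marker genes are left out.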

Additional observations from a re-analysis of the deposited data

Results flagged for a closer look

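In 5 of 36 groups of 4 libraries, over the 13 called guidance genes, a library stood far from the other 3 (chance gives about 1 in 20). Plxnc1 had 12.4 CPM in E13.5 control library 2 and 0 to 0.255 CPM in the other 3 controls. This library also held 826.7 CPM of hemoglobin genes, and whether those values are related was not tested. Sema3c had 21.1 CPM in E11.5 RarαDN library 1, beside 3.70 to 4.56 CPM in the others. Unc5c had 12.96 CPM in E11.5 RarαDN library 2, beside 4.51 to 5.67 CPM. Sema5b had 0.973 CPM in E11.5 RarαDN library 1 and Plxna2 had 0.145 CPM in E13.5 control library 3, each beside 0 in the other 3 libraries of its group. Where 3 of 4 libraries are at 0, any count in the fourth stands apart by construction, so the rate of 1 in 20 does not apply to these.

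The change with RarαDN differed between E11.5 and E13.5 for 10 genes in the interaction test. The fitted differences, on the log2 scale, were 4.02 for Slit3, 3.07 for Slit2, 6.61 for Sema3c, 3.90 for Sema5b, -2.75 for Sema3b, 1.54 for Nrp1, 6.01 for Plxna2 and -8.29 for Plxnc1. Those of Epha8 (12.45) and Sema4f (6.87) depend on the prior count, because at least one group was at 0, and are no bounds. Organ, Cre driver and reporter changed with age and cannot be told apart from it.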

How the results depend on the processing

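Slit3 kept its E11.5 call and its difference between ages under every alternative run. At E11.5, 8 guidance genes were called, against 13 with DESeq2, 4 with the replicate block, and 4 to 14 with a library left out. At E13.5, 3 were called, against 6 with DESeq2, 1 with the replicate block, 0 without both hemoglobin-rich controls, 0 with the length trend removed, and 0 to 4 with a library left out. For the difference between ages, 10 were called, against 6 with the replicate block and 8 to 12 with a library left out. Over all genes, 745 and 1007 calls at E11.5 and E13.5 became 1367 and 1723 with DESeq2, and 350 and 850 with the block. No pairing of the libraries by number was evident. Deviations of same-numbered libraries correlated at -0.171 to 0.195 at E11.5 and at 0.0197 to 0.0434 at E13.5, and not every library correlated best with its own number. With so few libraries per group, these correlations cannot exclude a pairing. Of single genes under alternatives, 637 results kept their side of the threshold, 68 lost and 12 gained a call, and 0 reversed. The median difference between ages over all genes was 0.12, against 0.25 without scaling and 0.02 with RLE, and at E13.5 the median without scaling was 0.14. Depth limits the low genes, since 10 members at E11.5 and 15 at E13.5 were too low to test.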
